A study of Mus musculus with 8 samples.

Results

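The Bcl2 family of apoptosis regulators was followed in primary fibroblasts of mouse lung kept for 48 hours with or without recombinant TWEAK, which is a ligand of the TNF superfamily and binds the receptor Fn14. The 9 genes described were taken by symbol from the deposited count table of 55335 rows. They are Bcl2, Bcl2l1, Bcl2l2 and Mcl1, which protect cells, Bak1, which permeabilises the mitochondrial outer membrane, and Bcl2l11, Bid, Bad and Bmf, which carry only the BH3 domain. All 9 passed the filter on low counts that left 17360 genes to test. The groups were untreated cells and cells given TWEAK at 10, 30 or 100 ng/ml, with 2 libraries each and 8 in all. All cells were labelled wild type (WT) and grown in DMEM with fetal bovine serum and antibiotics. The labels give no strain, sex, age or number of animals and do not state if replicates were separate cultures. The p-values therefore measure the spread between libraries, and that spread may be technical.

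The family decides whether a stressed cell releases cytochrome c from its mitochondria and enters apoptosis. Anti-apoptotic members hold the effectors Bak1 and Bax in check, and BH3-only proteins, switched on by damage, lost attachment or death receptor signals, bind the anti-apoptotic members or activate the effectors directly. In fibroblasts the balance between these groups is known to decide whether activated cells persist or are cleared during wound repair. Much of this control acts on the proteins, by cleavage, phosphorylation and degradation, which a count of transcripts does not show.

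Total counts ranged from 37345575 to 50896445 per library. Replicate libraries differed beyond sampling noise, and none was a duplicate. On the first principal component, with 49.7% of the variance, the scores were 66.5 and 67.6 for untreated libraries, -62.6 and -61.4 for the dose of 10 ng/ml, -48.7 and -35.3 for 30 ng/ml and 36.2 and 37.7 for 100 ng/ml. The libraries labelled with the highest dose thus stood nearest the untreated ones, and doses are given as labelled. Tnfrsf12a, which encodes Fn14, averaged log2 changes of 0.77 at 10 ng/ml, 0.85 at 30 ng/ml and 0.21 at 100 ng/ml against untreated cells, with adjusted p-values of 0.00536, 0.00422 and 0.644 (edgeR, Benjamini-Hochberg). The 8 fibroblast markers Col1a1, Col1a2, Col3a1, Dcn, Lum, Pdgfra, Thy1 and Vim were all detected, so the label fibroblast stood.

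The promoters of Bid, Bcl2 and Bmf are shown because these genes gave a call both at 10 ng/ml against untreated cells and between 100 and 10 ng/ml. Each window runs from 250 bases before to 50 bases after the RefSeq start on GRCm38.p6, on the strand of the gene, and all 9 genes matched. The Bid window is chr6:120916775-120917074, the Bcl2 window chr1:106714241-106714540 and the Bmf window, at the most upstream of its 3 starts, chr2:118549637-118549936, all on the minus strand. Capitals mark TGACGT, a core of the CREB binding motif, which lay 107 to 102 bases upstream of the Bcl2 start.
Bid: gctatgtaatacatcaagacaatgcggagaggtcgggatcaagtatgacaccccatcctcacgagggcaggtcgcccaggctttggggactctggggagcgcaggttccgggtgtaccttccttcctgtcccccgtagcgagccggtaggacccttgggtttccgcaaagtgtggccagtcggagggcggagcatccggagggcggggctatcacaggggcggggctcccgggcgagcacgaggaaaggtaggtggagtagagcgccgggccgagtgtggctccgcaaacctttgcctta
Bcl2: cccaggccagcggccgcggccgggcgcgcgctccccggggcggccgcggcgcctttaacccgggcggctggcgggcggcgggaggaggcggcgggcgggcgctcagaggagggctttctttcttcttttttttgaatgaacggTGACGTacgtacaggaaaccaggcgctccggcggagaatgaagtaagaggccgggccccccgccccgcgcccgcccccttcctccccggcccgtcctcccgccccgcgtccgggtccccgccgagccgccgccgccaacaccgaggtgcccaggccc
Bmf: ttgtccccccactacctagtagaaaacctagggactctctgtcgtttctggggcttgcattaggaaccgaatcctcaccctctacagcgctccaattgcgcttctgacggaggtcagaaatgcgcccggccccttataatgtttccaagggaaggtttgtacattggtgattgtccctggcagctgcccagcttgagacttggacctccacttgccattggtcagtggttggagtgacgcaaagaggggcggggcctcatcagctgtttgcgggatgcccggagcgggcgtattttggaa

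3 motifs were searched on both strands in the 15 windows of the 9 genes and in all 32851 windows of the same length. TGACGT was present in 7.51% of all windows and in 1 of the family's, that of Bcl2. The FOXO core GTAAACA was present in 3.65% of all windows and in 1 of the family's, 227 to 221 bases upstream of a Bcl2l11 start. The NF-kB consensus was GGGRNWYYCC, where R is A or G, W is A or T, Y is C or T and N is any base. It was present in 4.51% of all windows and in 2 of the family's. These matches lay 242 to 233 bases upstream of a Bcl2l1 start and at an inner Bmf start. The Bid window held none of the 3 sequences. These matches describe letters in the windows and are not binding sites.

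Levels between genes were compared as RPKM, here the depth-scaled count of edgeR (CPM, TMM-scaled) divided by gene length in kilobases. That length covers all exons annotated for a gene in GENCODE M21, merged over its transcripts. Order and shares between genes depend on it, and which transcripts were present was not measured. In untreated cells Mcl1, a short-lived guardian that sequesters Bak1 and Bcl2l11, was the most abundant at 55.9 ± 2.28 RPKM (SD, n = 2). Bak1 followed at 24.2 ± 5.12 RPKM, and then Bad at 18.9 ± 0.955 RPKM and Bcl2l2 at 18.8 ± 0.243 RPKM, whose libraries overlapped. Bcl2l1 at 8.50 ± 5.21 RPKM and Bid at 7.50 ± 0.244 RPKM overlapped likewise. The lowest were Bmf at 3.62 ± 0.514 RPKM, Bcl2l11 at 2.92 ± 0.889 RPKM and Bcl2 at 2.35 ± 0.0181 RPKM, with overlap between Bmf and Bcl2l11 and between Bcl2l11 and Bcl2. The founding member Bcl2 had the lowest mean RPKM of the 9. However, Bcl2l11 was below it in untreated replicate 1, at 2.29 against 2.34 RPKM. Before division by length, Bcl2 averaged 21.6 CPM in untreated cells, above Bmf at 19.0 CPM.

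Mcl1 and Bak1 kept the first and second place in all 4 groups. By its mean, Bid stood at rank 6 in untreated cells, rank 3 at 10 and 30 ng/ml and rank 4 at 100 ng/ml. Its libraries overlapped those of lower rank. At 10 ng/ml Bcl2l1 in replicate 1, at 16.49 RPKM, was just above Bid in replicate 2, at 16.48 RPKM. At 30 ng/ml Bad was above Bid in replicate 2, at 17.1 against 16.4 RPKM. At 100 ng/ml Bid overlapped Bcl2l1. The level of Bid at 10 ng/ml was 17.5 ± 1.43 RPKM, above that of Bad at 14.6 ± 0.624 RPKM in all libraries. Bcl2l2 took place 4 in untreated cells and place 6 at 10 ng/ml, where it averaged 9.81 ± 4.54 RPKM. Its libraries there overlapped those of Bcl2l1.

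**Figure D1:**
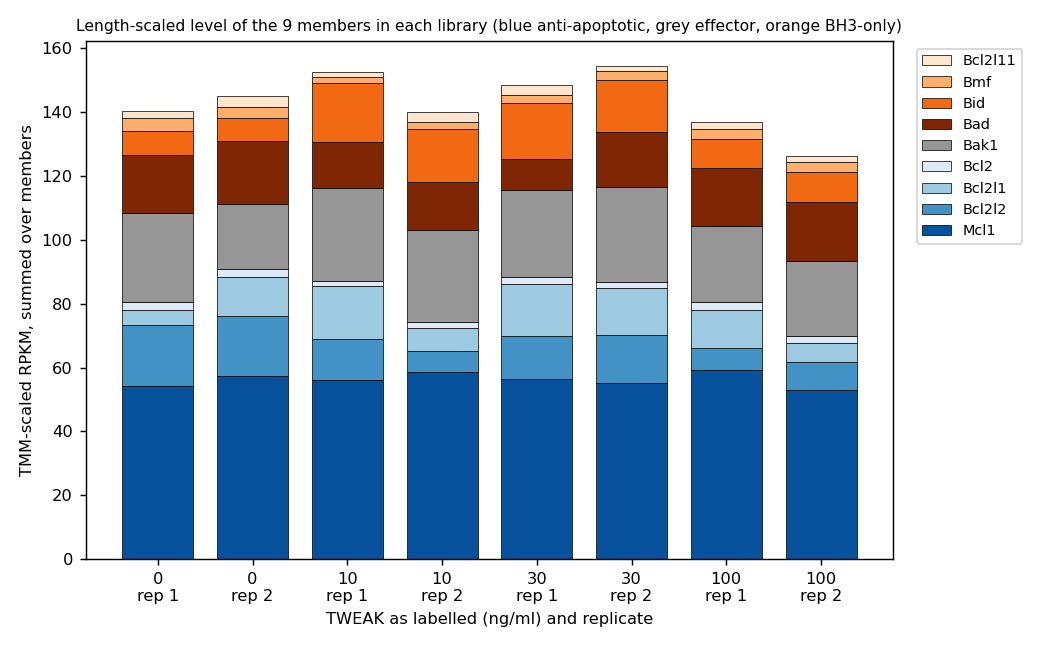
Length-scaled level (RPKM) of each of the 9 genes stacked per library, with libraries on the horizontal axis and colours standing for genes. Mcl1 is the largest part of every bar, and the part of Bid is wider at 10 and 30 ng/ml than in untreated cells.

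Mcl1 held between 36.8% and 42.6% of the summed RPKM of the 9 genes in the 4 groups. The 4 anti-apoptotic genes summed to 74.2 and 86.9 RPKM in the libraries at 10 ng/ml, against 80.4 and 90.7 RPKM in untreated libraries, and these ranges overlapped. The 4 BH3-only genes summed to 36.2 and 37.0 RPKM at 10 ng/ml, against 32.1 and 33.7 RPKM in untreated libraries, and these did not overlap. Their sums at 30 ng/ml, 33.1 and 37.8 RPKM, overlapped the untreated range. Those at 100 ng/ml, 32.6 and 32.8 RPKM, lay within it. Bid made up 23.9% and 21.8% of the BH3-only sum in untreated libraries, 51.2% and 44.5% at 10 ng/ml, 53.1% and 43.4% at 30 ng/ml and 28.2% and 28.7% at 100 ng/ml. The BH3-only sum therefore differed less between the groups than its makeup did.

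Differences between groups were tested per gene by edgeR's quasi-likelihood F test in 1 fit of all 8 libraries, and a gene was called at a Benjamini-Hochberg adjusted p below 0.05 over all 17360 genes. At 10 ng/ml against untreated cells Bid rose, Bcl2, Bcl2l2 and Bmf fell, and the other 5 genes were not called. These are 4 of 9 genes, where 29.2% of all tested genes were called, 15.0% as higher and 14.2% as lower. The values of both groups did not overlap for 6 of the 9 genes, 2 higher and 4 lower, where 65.6% of all tested genes did not overlap. The median log2 change of the 9 genes was -0.25, against 0.01 over all tested genes. The count of calls was 2 without untreated replicate 1 (Bid and Bak1) and 2 without untreated replicate 2 (Bid and Bmf).

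At 30 ng/ml against untreated cells 1 gene was called, Bid as higher, where 23.3% of all tested genes were called, 12.6% as higher and 10.7% as lower. Values did not overlap for 6 genes, against 63.2% of all tested genes, and the median log2 change was -0.23, against 0.01 over all. The count was 2 without either library at 10 ng/ml (Bid and Bmf), without replicate 2 at 30 ng/ml (Bid and Bad) and without untreated replicate 1 (Bid and Bak1). At 100 ng/ml against untreated cells edgeR called 0 of the 9 genes, where 1.12% of all tested genes were called, 0.812% as higher and 0.305% as lower. Of the 9, 2 had an unadjusted p below 0.05 at that dose (Bid and Bcl2l2), DESeq2 called 1 (Bcl2l2) and limma-voom called 0. Values did not overlap for 3 genes at 100 ng/ml, against 44.0% of all tested genes, and the median log2 change was -0.03, against 0.00 over all.

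**Figure D2:**
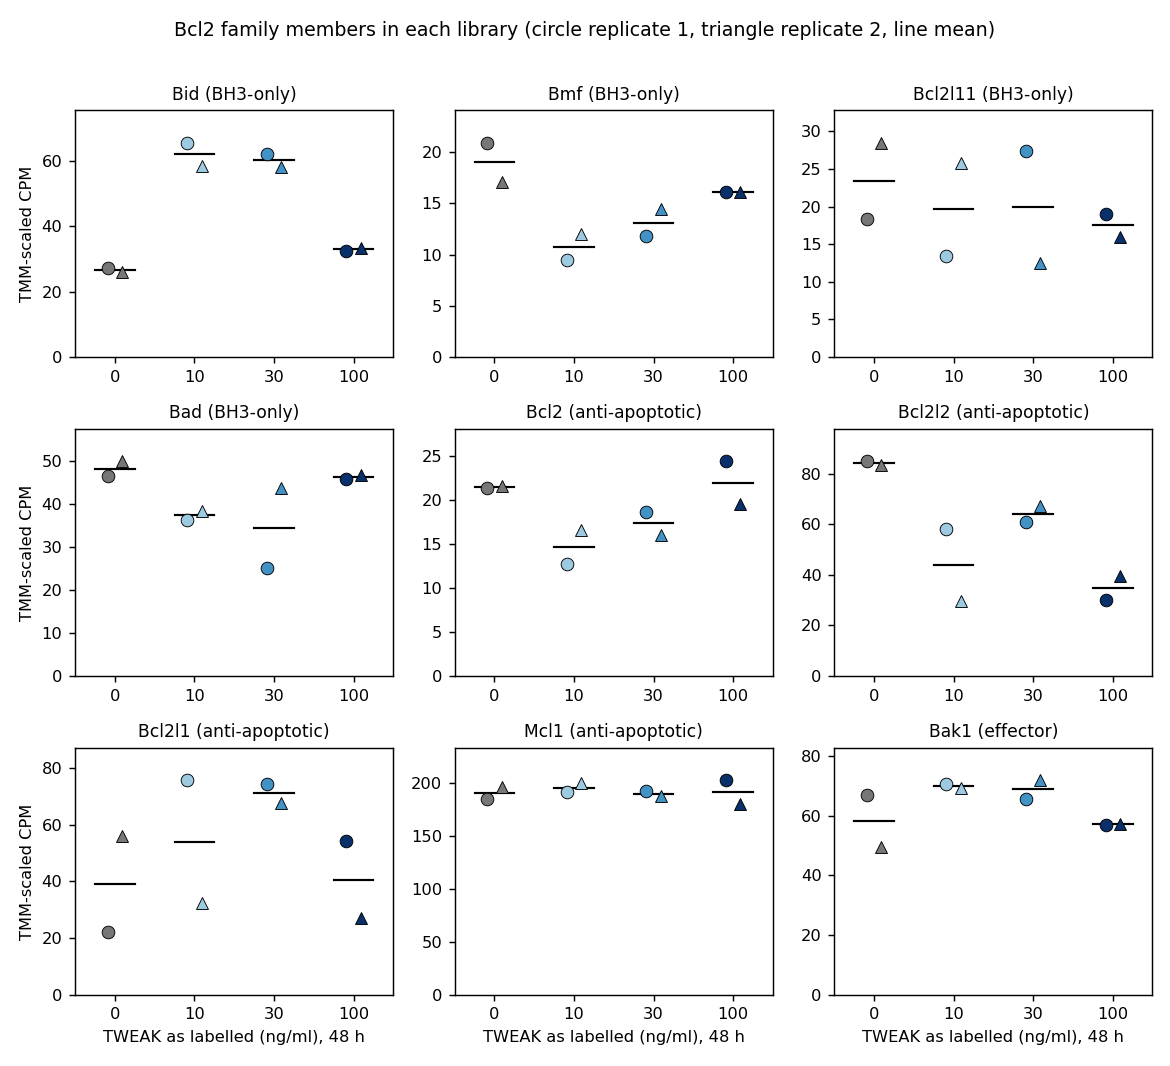
TMM-scaled CPM of each gene in every library, 1 panel per gene, with untreated cells and the doses 10, 30 and 100 ng/ml from left to right and points for the libraries. Bid lies between 58.1 and 65.7 CPM at 10 and 30 ng/ml and between 26.0 and 27.3 CPM in untreated cells, while the points of Bcl2l1 stand 2.01-fold to 2.53-fold apart in all groups but that of 30 ng/ml.

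Bid links death receptors to mitochondria: caspase 8 cuts the protein, and the truncated form activates Bak1 and Bax. The gene lies at chr6:120891930-120916853 on the minus strand in mm10 and codes for protein. It had 27.3 and 26.0 CPM in untreated libraries, 65.7 and 58.5 CPM at 10 ng/ml, 62.3 and 58.1 CPM at 30 ng/ml and 32.6 and 33.3 CPM at 100 ng/ml. All 4 libraries at 10 and 30 ng/ml were higher than those at 100 ng/ml, and these in turn were higher than the untreated ones, with no overlap.

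Bid averaged 62.1 ± 5.08 CPM at 10 ng/ml, against 26.6 ± 0.866 CPM in untreated cells (SD, n = 2), a log2 change of 1.22 ± 0.09 (SE) or 2.33-fold with a 95% interval of 2.02 to 2.68 (edgeR, adjusted p = 3.94e-05). At 30 ng/ml the log2 change was 1.18 ± 0.09, a fold of 2.26 (adjusted p = 7.18e-05). At 100 ng/ml the fold was 1.24, with a 95% interval of 1.08 to 1.42 for this gene alone, and the adjusted p of 0.192 missed the threshold. Leaving out any 1 library kept the log2 change at 10 ng/ml between 1.13 and 1.30 and kept it called. The doses themselves differed: Bid was lower at 100 than at 10 ng/ml, by a log2 change of -0.91 ± 0.09 (adjusted p = 0.000286), and lower at 100 than at 30 ng/ml, by -0.87 ± 0.09 (adjusted p = 0.000621). Between 30 and 10 ng/ml the log2 change was -0.04 ± 0.09, with a fold between 0.844 and 1.11 (adjusted p = 0.961).

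Of the exon bases of Bid, 17.7% are shared with Bcl2l13 on the opposite strand, and the use of strand in counting is not given in the sources used here, so reads there could belong to either gene. Bcl2l13, a mitochondrial member of the family, had 48.5 and 48.4 CPM in untreated libraries, 59.8 and 55.1 CPM at 10 ng/ml, 57.7 and 54.8 CPM at 30 ng/ml and 45.1 and 54.2 CPM at 100 ng/ml. Its log2 change at 10 ng/ml was 0.24 (adjusted p = 0.110), below that of Bid. Across the 8 libraries the log2 levels of Plxnb2, Aurkb and Mif followed Bid most closely among 10597 genes of at least 5 CPM, with Pearson correlations of 0.998, 0.998 and 0.997. These points share libraries and group differences, so the values describe likeness only.

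In a bulk sample, fewer cells of a type and less RNA per cell cannot be told apart, and other cell types could add to a level. The 9 macrophage and myeloid markers summed to 29.3 to 33.2 CPM in untreated libraries, 62.9 to 72.2 CPM at 10 ng/ml, 54.3 to 67.6 CPM at 30 ng/ml and 46.8 to 50.0 CPM at 100 ng/ml. Cd14, Lyz2 and Cd68 carried most of that sum, while Ptprc, which marks all leukocytes, reached at most 0.651 CPM and Adgre1 at most 0.528 CPM. The 8 fibroblast markers summed to 10712 to 10810 CPM at 10 ng/ml, against 20546 to 20799 CPM in untreated libraries. Col3a1, at 1886 to 8955 CPM over the 8 libraries, and Col1a1, at 1544 to 4129 CPM, spanned far more than Pdgfra, at 1249 to 1557 CPM. By ratio, Lum, at 3.30 to 16.6 CPM, and Thy1, at 31.0 to 84.9 CPM, also spanned far more than Pdgfra. Col1a2, at 2965 to 4505 CPM, Dcn, at 1013 to 1596 CPM, and Vim, at 826 to 1259 CPM, lay between these by ratio. Each spanned more than Pdgfra and less than Col3a1, Col1a1, Lum and Thy1. The 6 mesothelial markers summed to 4.54 to 6.28 CPM at 10 ng/ml, against 13.5 to 13.6 CPM in untreated libraries. The 7 pericyte and smooth muscle markers summed to 164 to 184 CPM at 10 ng/ml, against 140 to 156 CPM in untreated libraries. The 9 epithelial markers summed to at most 2.22 CPM, the 8 endothelial markers to at most 7.81 CPM and the 7 lymphocyte markers to at most 0.749 CPM in any library, with Epcam, Nkx2-1, Tie1, Emcn, Cd3e, Cd3d and Nkg7 at 0 in all 8. The part of these markers in the differences of the family was not tested.

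Bmf, a BH3-only protein that is held at the cytoskeleton by dynein light chains and freed when cells detach, moved the other way. The gene lies at chr2:118528757-118549687 on the minus strand and shares no exon base with another gene. It had 20.9 and 17.1 CPM in untreated libraries, 9.48 and 12.0 CPM at 10 ng/ml, 11.8 and 14.5 CPM at 30 ng/ml and 16.1 and 16.1 CPM at 100 ng/ml. Both untreated libraries were higher than all 6 libraries given TWEAK. Bmf fell to 10.8 ± 1.79 CPM at 10 ng/ml, against 19.0 ± 2.70 CPM in untreated cells, a log2 change of -0.82 ± 0.17 and a fold of 0.566 (edgeR, adjusted p = 0.00809). Without untreated replicate 1 the change at 10 ng/ml was -0.67 and was not called (adjusted p = 0.0584).

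At 30 ng/ml the log2 change of Bmf was -0.54 ± 0.17, just outside the threshold (edgeR, adjusted p = 0.0545). With 1 library left out, that change ran from -0.69 to -0.39. Bmf was called lower at that dose by DESeq2 (0.0240), by limma-voom (0.0384) and in edgeR with a filter at a mean of 1 CPM (0.0499). Only these 3 of the 10 alternatives that left out no single library called Bmf, and its adjusted p reached 0.0836 among the 10. It was also called without either library at 10 ng/ml (adjusted p of 0.0446 without replicate 1 and 0.0467 without replicate 2). The change at 100 ng/ml was -0.24 ± 0.17 (adjusted p = 0.649). Bmf was higher at 100 than at 10 ng/ml by 0.58 ± 0.17 (adjusted p = 0.0437). That call was lost without TWEAK replicate 1 at 10 ng/ml (adjusted p = 0.197), replicate 1 or 2 at 100 ng/ml (0.143 and 0.138), or untreated replicate 1 or 2 (0.0524 and 0.0506).

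Bcl2l11 encodes Bim, a potent activator known to be induced when growth factors or matrix contact are lost. The gene lies at chr2:128126038-128162547 on the plus strand. It had 18.4 and 28.5 CPM in untreated libraries, 13.5 and 25.8 CPM at 10 ng/ml, 27.4 and 12.5 CPM at 30 ng/ml and 19.1 and 16.0 CPM at 100 ng/ml. The groups overlapped at every dose. At 10 ng/ml the fold was 0.838, with a 95% interval from 0.431 to 1.63 (edgeR, adjusted p = 0.698). The intervals at 30 and 100 ng/ml were 0.438 to 1.65 and 0.383 to 1.46.

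Bad, which is silenced by survival kinases through phosphorylation, lies at chr19:6941861-6951899 on the plus strand. It had 46.5 and 50.0 CPM in untreated libraries, 36.3 and 38.5 CPM at 10 ng/ml, 25.2 and 43.7 CPM at 30 ng/ml and 46.0 and 46.8 CPM at 100 ng/ml. The 4 libraries at 10 and 30 ng/ml were below both untreated ones, yet the 2 libraries at 30 ng/ml differed 1.73-fold. The log2 change was -0.37 ± 0.21 at 10 ng/ml and -0.49 ± 0.21 at 30 ng/ml, with adjusted p-values of 0.247 and 0.152 (edgeR). Without replicate 1 or replicate 2 at 30 ng/ml the change at 10 ng/ml was called, though it stayed at -0.37 in both. It was not called without any other library, and ranged from -0.42 to -0.32 over all fits with 1 library left out. Without replicate 2 at 30 ng/ml the change at that dose was -0.94, but without replicate 1 it was -0.15. Of its exon bases, 20.5% are shared with Gpr137 on the opposite strand, which had 838 to 1179 counts per library.

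Bcl2, the founding survival gene of the family, lies at chr1:106538178-106714274 on the minus strand. It had 21.4 and 21.7 CPM in untreated libraries, 12.8 and 16.7 CPM at 10 ng/ml, 18.7 and 16.1 CPM at 30 ng/ml and 24.4 and 19.6 CPM at 100 ng/ml. The libraries at 10 and 30 ng/ml were below both untreated ones, and those at 100 ng/ml lay on either side. Bcl2 fell to 14.7 ± 2.74 CPM at 10 ng/ml, against 21.6 ± 0.166 CPM in untreated cells, a log2 change of -0.55 ± 0.16 and a fold of 0.684 (edgeR, adjusted p = 0.0387). The call was lost without replicate 1 at 10 ng/ml (log2 change -0.38, adjusted p = 0.180), untreated replicate 1 (adjusted p = 0.123) or untreated replicate 2 (adjusted p = 0.128). It was also lost with no low-count filter (0.0574) and with library totals without TMM (0.0527).

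The log2 change of Bcl2 was -0.31 ± 0.16 at 30 ng/ml and 0.03 ± 0.16 at 100 ng/ml (edgeR, adjusted p of 0.229 and 0.975). Between doses, Bcl2 was higher at 100 than at 10 ng/ml by 0.58 ± 0.16 (adjusted p = 0.0402). This call was lost without replicate 1 at 10 ng/ml (0.178), replicate 1 at 100 ng/ml (0.220), untreated replicate 1 (0.0657) or untreated replicate 2 (0.0652). An antisense gene, D630008O14Rik, overlaps 6.09% of the exon bases of Bcl2.

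Bcl2l2, which encodes the survival protein Bcl-w, lies at chr14:54883377-54888234 on the plus strand. It had 84.8 and 83.2 CPM in untreated libraries, 58.1 and 29.4 CPM at 10 ng/ml, 60.8 and 67.3 CPM at 30 ng/ml and 30.2 and 39.6 CPM at 100 ng/ml. All 6 libraries given TWEAK were below both untreated ones. Bcl2l2 fell to 43.8 ± 20.3 CPM at 10 ng/ml, against 84.0 ± 1.08 CPM in untreated cells, a log2 change of -0.94 ± 0.28 and a fold of 0.521 (edgeR, adjusted p = 0.0365). That change was -0.53 without replicate 2 at 10 ng/ml and -1.52 without replicate 1. The call was lost without replicate 2 at 10 ng/ml (adjusted p = 0.0637), replicate 1 or 2 at 30 ng/ml (0.0514 and 0.0509), or untreated replicate 1 or 2 (0.117 and 0.104). It was also lost with no low-count filter (0.0569) and in a fit of only the 2 groups (0.0613).

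Bcl2l2 averaged 34.9 ± 6.66 CPM at 100 ng/ml, a fold of 0.415 with a 95% interval of 0.265 to 0.650, and its adjusted p of 0.0971 missed the threshold of edgeR. It was called there by DESeq2 (0.0178) and in a fit of only the 2 groups (0.0187). These were 2 of the 9 alternatives that left out no single library, and the adjusted p reached 0.162 among the 9. Bcl2l2 was also called there without replicate 1 or 2 at 10 ng/ml, but in no other fit with 1 library left out. Over these 8 fits the log2 change at 100 ng/ml ran from -1.48 to -1.09. At 30 ng/ml the log2 change was -0.39 ± 0.27 (adjusted p = 0.366). For Bcl2l2 the estimate at 100 ng/ml lay further from 0 than that at 10 ng/ml, but the difference between these doses, -0.33 ± 0.28, was not called (adjusted p = 0.457). That difference rested on single libraries: it was -0.74 and called without replicate 2 at 10 ng/ml (adjusted p = 0.0256), and 0.25 and not called without replicate 1 (adjusted p = 0.389). Gm20521, which overlaps 13.3% of its exon bases on the same strand, had 199 and 186 counts in untreated libraries, 198 and 163 at 10 ng/ml, 0 and 77 at 30 ng/ml and 55 and 144 at 100 ng/ml, so reads could be split between them. With both counts summed, an alternative chosen after seeing the data, the log2 change at 10 ng/ml was -0.86 (adjusted p = 0.0477).

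Bcl2l1 encodes the survival protein Bcl-xL and a short death-promoting splice form, which a gene count does not separate. The gene lies at chr2:152780668-152831728 on the minus strand. It had 22.1 and 55.8 CPM in untreated libraries, 75.6 and 32.4 CPM at 10 ng/ml, 74.5 and 67.7 CPM at 30 ng/ml and 54.3 and 27.0 CPM at 100 ng/ml. Libraries of a group differed 2.53-fold in untreated cells, 2.34-fold at 10 ng/ml and 2.01-fold at 100 ng/ml, and by 1.10-fold at 30 ng/ml. The log2 change was 0.47 ± 0.52 at 10 ng/ml, 0.87 ± 0.52 at 30 ng/ml and 0.06 ± 0.52 at 100 ng/ml, with adjusted p-values of 0.556, 0.294 and 0.987 (edgeR). The 95% interval of the fold at 10 ng/ml ran from 0.597 to 3.21.

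Mcl1 lies at chr3:95658788-95663176 on the plus strand. It had 185 and 197 CPM in untreated libraries, 192 and 201 CPM at 10 ng/ml, 192 and 188 CPM at 30 ng/ml and 203 and 181 CPM at 100 ng/ml. All groups overlapped, and no estimate against untreated cells lay further than 0.04 from 0 on the log2 scale. The 95% interval of the fold was 0.910 to 1.16 at 10 ng/ml, 0.884 to 1.12 at 30 ng/ml and 0.890 to 1.13 at 100 ng/ml, with adjusted p-values of 0.756, 0.979 and 0.992 (edgeR).

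Bak1, which forms pores in the mitochondrial outer membrane, lies at chr17:27019810-27029009 on the minus strand. It had 67.0 and 49.5 CPM in untreated libraries, 70.8 and 69.5 CPM at 10 ng/ml, 65.7 and 71.9 CPM at 30 ng/ml and 57.0 and 57.1 CPM at 100 ng/ml. The libraries at 10 ng/ml were above both untreated ones, but untreated replicate 1 was close to them. The log2 change was 0.27 ± 0.13 at 10 ng/ml and 0.24 ± 0.13 at 30 ng/ml (edgeR, adjusted p of 0.172 and 0.244). Without untreated replicate 1 these were 0.50 and 0.47 and were called. Without untreated replicate 2 they were 0.06 and 0.04 and were not called. At 100 ng/ml the log2 change was -0.03 ± 0.13 (adjusted p = 0.970). Of the exon bases of Bak1, 25.5% are shared with 2 annotated genes named Ggnbp1 on the opposite strand. Ggnbp1 had 20 to 154 counts per library.

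**Figure D3:**
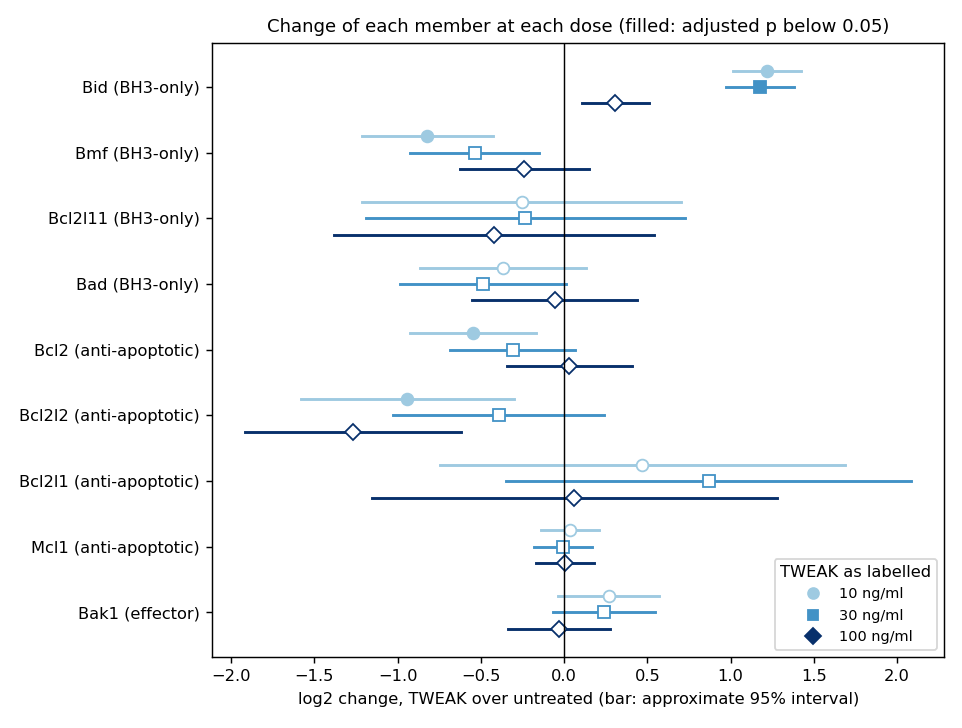
Log2 change of each gene against untreated cells at 10, 30 and 100 ng/ml, with points for the estimate of the edgeR fit, bars for its 95% interval, and filled points for genes called at an adjusted p below 0.05. Bid stands at 1.22 and 1.18 at the 2 lower doses with short bars, and the bars of Bcl2l1 and Bcl2l11 cross 0 at every dose.

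Replicate libraries lay close together for some of the 9 genes and far apart for others. In the 8867 genes of 10 to 200 CPM the median ratio between the 2 libraries of a group was 1.07 to 1.09, depending on the group, and 2.86% to 3.73% of them exceeded 1.5-fold. The largest ratio of Bcl2l1 was exceeded by that of 1.74% of these genes, that of Bcl2l11 by 2.65%, that of Bcl2l2 by 3.44% and that of Bad by 5.02%. By contrast, the largest ratios of Bid and Mcl1 were exceeded by 69.8% and 69.3%. These 4 genes of wide spread had between 504 and 4243 counts per library.

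**Figure D4:**
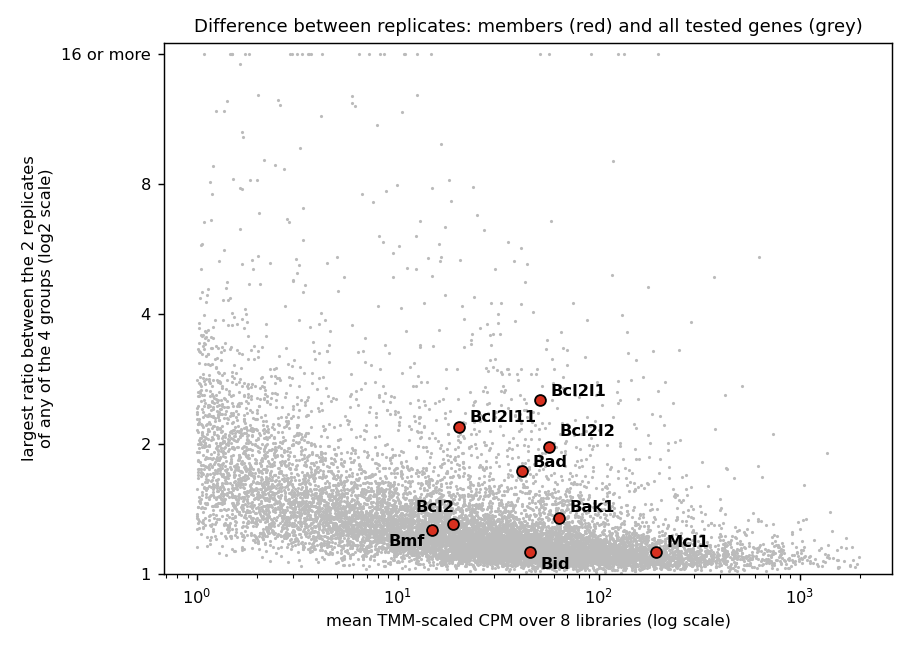
Largest ratio between the 2 libraries of a group (vertical axis, log2 scale, with the highest ratios drawn at the top edge) against mean CPM over the 8 libraries (horizontal axis, log scale), with the 9 genes of the family in red and other tested genes in grey. Bcl2l1 at 2.53, Bcl2l11 at 2.19, Bcl2l2 at 1.97 and Bad at 1.73 lie above most genes, and Bid and Mcl1 lie among the bulk at 1.12.

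Between doses, 30 against 10 ng/ml gave 0 calls among the 9 genes and 0 among all 17360 with edgeR, or 0%. None of the 9 had an unadjusted p below 0.05 in that comparison, DESeq2 and limma-voom called none of the 9, and over all genes 1208 had an unadjusted p below 0.05, DESeq2 called 127 and limma-voom 0. Values did not overlap for 1 of the 9, Bcl2l2, where 36.4% of all tested genes did not overlap. At 100 against 10 ng/ml 3 genes were called, where 22.0% of all tested genes were called, 10.7% as higher and 11.2% as lower. Bcl2 and Bmf were higher and Bid lower. The values of 5 genes did not overlap there, against 60.5% of all tested genes. That count of calls ranged from 1 to 4 when 1 library was left out: it was 1 (Bid) without replicate 1 at 10 ng/ml or replicate 1 at 100 ng/ml. At 100 against 30 ng/ml 1 gene was called, Bid, where 15.2% of all tested genes were called, 7.15% as higher and 8.04% as lower. The values of 7 genes did not overlap, against 57.3%. The count was 2 without either library at 10 ng/ml (Bid and Bcl2l2) and without replicate 2 at 30 ng/ml (Bid and Bad). These comparisons share libraries with those against untreated cells, so a gene that stands apart at 10 ng/ml enters both.

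Of 16 other genes of the Bcl2 family, 10 passed the filter. They include Bcl2a1d, with 0 counts in both untreated libraries and at most 13 in any library, and Bcl2l15, with at most 39. Both lie near the floor and enter the counts and the median given here. At 10 ng/ml 3 of the 10 rose, where 15.0% of all tested genes were called higher, with a median log2 change of 0.35 against 0.01 over all tested genes. Bax, the partner effector of Bak1, averaged 120 ± 8.58 CPM at 10 ng/ml, against 93.9 ± 5.36 CPM in untreated cells, a log2 change of 0.35 ± 0.08 (edgeR, adjusted p = 0.0108). Bbc3, which encodes the p53 target Puma, averaged 28.5 ± 0.990 CPM, against 21.2 ± 1.01 CPM (log2 change 0.43 ± 0.11, adjusted p = 0.0245). Bnip3, a mitophagy receptor with a BH3-like domain, averaged 92.4 ± 3.79 CPM, against 57.7 ± 4.23 CPM (log2 change 0.68 ± 0.09, adjusted p = 0.00102). The same 3 genes were called higher at 30 ng/ml, with log2 changes of 0.36 for Bax, 0.38 for Bbc3 and 0.70 for Bnip3. For 100 ng/ml edgeR called 0 of the 10, where 1.12% of all tested genes were called, 1 had an unadjusted p below 0.05, DESeq2 called 1 and limma-voom 0. Bcl2a1a, Bcl2a1b, Bcl2l10, Bcl2l14, Hrk and Bik did not pass the filter and had at most 8 counts in any library.

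Among 18 genes of the caspases, the apoptosome, mitochondrial factors and their inhibitors, 6 rose at 10 ng/ml, 5 at 30 ng/ml and 3 at 100 ng/ml, where 15.0%, 12.6% and 0.812% of all tested genes were called higher. The median log2 change at 10 ng/ml was 0.22, against 0.01 over all tested genes. Casp8, whose product cleaves Bid, averaged 44.2 ± 1.39 CPM at 10 ng/ml, against 28.2 ± 1.46 CPM in untreated cells, a log2 change of 0.65 ± 0.09 (edgeR, adjusted p = 0.00110). It was lower at 100 than at 10 ng/ml by -0.52 ± 0.09 (adjusted p = 0.00474). Larger changes were measured for the ubiquitin ligases that restrain caspase 8 in TNF receptor complexes. Birc2 (cIAP1) averaged 284 ± 23.2 CPM at 10 ng/ml, against 54.4 ± 2.80 CPM, and Birc3 (cIAP2) 78.3 ± 0.344 CPM, against 18.4 ± 0.0277 CPM. Their log2 changes were 2.39 ± 0.11 and 2.09 ± 0.09 (edgeR, adjusted p of 7.00e-06 and 4.05e-06). Htra2, a mitochondrial protease that antagonises inhibitor of apoptosis proteins, had a log2 change of 0.75 ± 0.08 (adjusted p = 0.000294).

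Of 26 genes known to regulate the transcription, turnover or sites of action of family members, 25 passed the filter. At 10 ng/ml 6 rose and 5 fell, at 30 ng/ml 7 rose and 5 fell, and at 100 ng/ml 1 rose. Of all tested genes, 29.2%, 23.3% and 1.12% were called in these comparisons in either direction. The median log2 change at 10 ng/ml was 0.03, against 0.01 over all tested genes. Nfkb2, a subunit of the non-canonical NF-kB pathway, averaged 415 ± 9.98 CPM at 10 ng/ml, against 60.4 ± 1.55 CPM in untreated cells (log2 change 2.78 ± 0.07, edgeR, adjusted p = 1.27e-06). Its partner Relb averaged 71.4 ± 8.88 CPM, against 17.8 ± 0.282 CPM (2.00 ± 0.12, adjusted p = 1.86e-05). Trp53, which encodes p53, averaged 173 ± 12.6 CPM, against 92.3 ± 5.48 CPM (0.90 ± 0.09, adjusted p = 0.000232). Itpr1, a calcium channel of the endoplasmic reticulum that Bcl2 binds, fell to 66.1 ± 7.44 CPM, against 134 ± 8.21 CPM (-1.02 ± 0.11, adjusted p = 0.000256).

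For likeness across the 8 libraries, the 3 nearest genes of Bak1 were Arid1a, Stk11 and Qtrt1, with Pearson correlations of 0.984, 0.976 and 0.974. Those of Bcl2l2 were C4a, Xab2 and Zfp532, at 0.949, 0.939 and 0.931. As for Bid, the points share libraries and dose groups, and the best of 10597 genes is high by selection, so these values only list similar profiles.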

How the data were processed

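RNA sequencing of 8 libraries was deposited as 1 table of raw read counts per gene, without any normalization by the authors. The submitters' processing notes name mm10, STAR and StringTie with no version. The counting program is not given in the sources used here, nor are the annotation and the use of strand. Rows that named no gene (0.168% to 0.178% of counts) were left out. Counts were tested with edgeR 4.0.16 in R 4.3.3: filterByExpr by group, TMM scaling, and 1 quasi-likelihood fit of all 8 libraries with 4 residual degrees of freedom. The 6 comparisons were two-sided, with Benjamini-Hochberg adjustment over 17360 genes. Standard errors are approximate, computed as the absolute change over the square root of F, and 95% intervals are for 1 gene, without adjustment. The code of the test was checked on counts simulated from levels and spreads estimated from these data. That check takes the model as given and does not assess the calls of this report. Alternatives were DESeq2 1.42.0, limma-voom (limma 3.58.1), DESeq2 size factors in place of TMM, no scaling beyond library totals, no filter on low counts, a filter at a mean of 1 CPM, separate fits of 2 groups, the replicate block and leaving out each library, where the lone library was assumed to vary like the others. From each of the 3 lists of other genes, the called genes of smallest p at 10 ng/ml were named, at most 4. For the member of smallest adjusted p in each role, the 3 genes of most similar profile were named. The members and lists were chosen with earlier results of these data known.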

Additional observations from a re-analysis of the deposited data

How the results depend on the processing

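Bid stayed called, in the same direction, at 10 and 30 ng/ml against untreated cells and at 100 against 10 and 30 ng/ml, under every alternative run and without any 1 library. The count of called members was less steady. At 10 ng/ml against untreated cells it was 4, but 2 (Bid and Bmf) with no low-count filter and with the replicate block, 3 with library totals without TMM, where Bcl2 was lost, and 2 to 4 with 1 library left out. In the fit of only the 2 groups it was 4, but with Bad (adjusted p = 0.0262) in place of Bcl2l2 (0.0613). At 30 ng/ml it was 1, but 3 by DESeq2 (Bid, Bad and Bmf), 2 by limma-voom (Bid and Bmf), 2 with a mean of at least 1 CPM (Bid and Bmf) and 2 in a fit of only the 2 groups compared (Bid and Bcl2l2), and 1 to 2 with 1 library left out. At 100 ng/ml it was 0, but 1 (Bcl2l2) by DESeq2 and 1 in the fit of the 2 groups, and 0 to 1 with 1 library left out. At 100 against 10 ng/ml it was 3, but 1 (Bid) with no low-count filter, in the fit of the 2 groups and with the replicate block, and 1 to 4 with 1 library left out. At 100 against 30 ng/ml it was 1, but 2 in the fit of the 2 groups (Bid and Bcl2l2), and 1 to 2 with 1 library left out. At 30 against 10 ng/ml it was 0 under every alternative. The cause of these differences was not tested.

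Signs turned only for changes that were not called with all libraries under the settings of the report. The Mcl1 log2 change was 0.025 at 30 ng/ml with library totals without TMM and -0.0071 at 100 ng/ml with no low-count filter, that of Bcl2l1 was -0.042 at 100 ng/ml with the replicate block, and that of Bcl2l11 was -0.019 at 30 against 10 ng/ml by limma-voom. With 1 library left out, the ranges at 10 ng/ml against untreated cells were -0.27 to 1.29 for Bcl2l1, -0.0057 to 0.077 for Mcl1 and -0.80 to 0.13 for Bcl2l11. The ranges at 30 ng/ml were -0.047 to 0.036 for Mcl1 and -0.91 to 0.22 for Bcl2l11. The ranges at 100 ng/ml were -0.14 to 0.18 for Bcl2, -0.53 to 0.88 for Bcl2l1, -0.081 to 0.086 for Mcl1 and -0.23 to 0.20 for Bak1. At 30 against 10 ng/ml they were -0.089 to 1.13 for Bcl2l1, -0.092 to 0.036 for Bak1, -0.65 to 0.57 for Bcl2l11, -0.12 to 0.041 for Bid and -0.57 to 0.22 for Bad. At 100 against 10 ng/ml they were -0.996 to 0.34 for Bcl2l1, -0.74 to 0.25 for Bcl2l2, -0.12 to 0.050 for Mcl1 and -0.55 to 0.38 for Bcl2l11. At 100 against 30 ng/ml they were -0.076 to 0.091 for Mcl1 and -0.64 to 0.49 for Bcl2l11.

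Over all genes, 194 were called at 100 ng/ml against untreated cells by edgeR and 598 by DESeq2, with 91 to 237 when 1 library was left out. The corresponding ranges were 2540 to 3831 of 4041 at 30 ng/ml, 2406 to 3545 of 3816 at 100 against 10 ng/ml and 1380 to 2468 of 2637 at 100 against 30 ng/ml. At 30 against 10 ng/ml, where edgeR called 0, they were 3 to 62. Without both libraries at 100 ng/ml, chosen after seeing the data, 4 members were called at 10 ng/ml and 1 at 30 ng/ml. Replicate numbers were shared between groups, but deviations of libraries with the same number correlated by only -0.0463 to 0.0282 over 6 pairs of groups. No effect of the number was thus seen over all genes. Such a correlation cannot tell if libraries of the same number shared a culture or animal. With the replicate block the adjusted p at 10 ng/ml against untreated cells was 0.0611 for Bcl2 and 0.0514 for Bcl2l2, and at 100 against 10 ng/ml 0.0655 for Bcl2 and 0.0618 for Bmf. With 2 libraries per group and 4 residual degrees of freedom, the wide intervals of Bcl2l1 and Bcl2l11 limit what could be detected.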
